A study of Mus musculus with 8 samples.

Results

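Resident macrophages of the outer sheaths of mouse peripheral nerve are marked by a small set of genes, and 9 of them were followed here: Cd163, Mrc1, Lyve1, Folr2, Clec10a, Retnla, Mgl2, Cbr2 and F13a1. They were taken by symbol, and all 9 were found among the 23356 genes of the expression table. Cd163 and Lyve1 were lower in every library with the neuregulin 1 transgene than in any library without it, as were 5.2% of all tested genes. Of these 2 only Cd163 passed the main test of the transgene. It no longer passed when any 1 of the 8 libraries was left out. The other 7 showed no such split, and several of them differed more, on average, between the 2 libraries of a genotype than with the transgene.

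The nerves came from F1 mice of C57BL/6 and FVB/N aged 30 days, with 2 libraries for each of 4 genotypes. HA-NRG1 type III/+:Q215X/+ nerves, called the double below, carried both a transgene for tagged type III neuregulin 1 and 1 copy of the Q215X allele. HA-NRG1 type III/+ nerves carried the transgene alone, Q215X/+ nerves the Q215X allele alone, and WT nerves neither. No source used here gives the promoter of the transgene or says how many animals stand behind a library, so p-values cover only library-to-library spread, part of which may be technical. Levels are in FPKM, fragments scaled to transcript length and to the size of the library, and the 2 libraries of a genotype are named set 0 and set 1 after the ending of their column.

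In a peripheral nerve, macrophages sit in 2 places. Those of the endoneurium lie among the nerve fibres and resemble microglia, while those of the epineurium lie in the surrounding connective tissue near vessels and carry scavenger and lectin receptors found on perivascular macrophages elsewhere. In mouse nerve the epineurial cells are known for the secreted protein RELMα, the product of Retnla, and for the lectin MGL1, the product of Clec10a. Several of the genes are induced in mouse macrophages by interleukin 4 and interleukin 13 through the transcription factor STAT6.

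All 9 genes were expressed in all 8 libraries, and all passed the filter of a mean of at least 1 FPKM that left 12530 genes for testing. Retnla was the most abundant, with a mean of 134 FPKM over the 8 libraries, above 95.9% of the tested genes. Cbr2 averaged 46.0, F13a1 34.7, Folr2 29.5, Mrc1 26.5, Mgl2 23.2, Clec10a 13.7, Lyve1 12.5 and Cd163 11.4 FPKM. Genes that macrophages of most tissues share were present, among them the growth factor receptor gene Csf1r at 30.4 to 49.7 FPKM. Whole nerve does not show where in the nerve a transcript was made, so the epineurial origin in the genes' name was not tested. In whole tissue, fewer cells of a type and less RNA per cell cannot be told apart.

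Retnla and Cd163 carried the largest set difference and the called transgene difference, and Cbr2 and F13a1 are the other genes whose promoters held a searched motif. Their RefSeq promoters on build GRCm38.p6, from 250 bases before to 50 bases after the start site, read 5′ to 3′ on the gene's strand, with motif matches in capitals.
Retnla, chr16:48842359-48842658, plus strand: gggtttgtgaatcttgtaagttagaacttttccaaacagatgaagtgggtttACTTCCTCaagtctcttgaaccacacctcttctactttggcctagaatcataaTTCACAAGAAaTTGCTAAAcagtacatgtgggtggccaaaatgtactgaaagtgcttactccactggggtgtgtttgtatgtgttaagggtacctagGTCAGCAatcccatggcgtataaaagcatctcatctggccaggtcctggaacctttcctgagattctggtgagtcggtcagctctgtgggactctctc
Cd163, chr6:124304401-124304700, plus strand: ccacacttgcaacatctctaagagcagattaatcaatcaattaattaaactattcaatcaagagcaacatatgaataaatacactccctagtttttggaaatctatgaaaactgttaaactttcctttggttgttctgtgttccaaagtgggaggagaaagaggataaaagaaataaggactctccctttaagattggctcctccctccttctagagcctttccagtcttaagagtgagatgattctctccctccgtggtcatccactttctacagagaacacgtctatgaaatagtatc
Cbr2, chr11:120731972-120732271, minus strand: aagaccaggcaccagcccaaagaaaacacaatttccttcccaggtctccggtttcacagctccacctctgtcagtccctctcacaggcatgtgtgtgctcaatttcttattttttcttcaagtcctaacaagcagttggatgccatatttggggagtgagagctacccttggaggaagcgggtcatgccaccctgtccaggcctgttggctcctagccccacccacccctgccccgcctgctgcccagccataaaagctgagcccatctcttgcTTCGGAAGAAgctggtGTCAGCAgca
F13a1, chr13:37049164-37049463, minus strand: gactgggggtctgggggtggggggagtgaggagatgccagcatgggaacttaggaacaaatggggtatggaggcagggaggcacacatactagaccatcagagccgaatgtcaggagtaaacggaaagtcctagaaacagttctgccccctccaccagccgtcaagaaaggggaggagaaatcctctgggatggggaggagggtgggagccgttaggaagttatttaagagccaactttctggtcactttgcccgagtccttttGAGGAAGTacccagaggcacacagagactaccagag
The motifs were a STAT6 site (TTC and GAA with 4 bases of any kind between them), a C/EBP core (TTGCNNAA), a PU.1 box (GAGGAAGT) and a MAF site (TGCTGAC), searched on both strands. The Retnla promoter held all 4, with the STAT6 match at −145, the C/EBP match at −134, the PU.1 match at −198 and the MAF match at −48 from the start site. The Cbr2 promoter held a STAT6 match and a MAF match after the start site, and the shown F13a1 promoter, 1 of 2 for that gene, held a PU.1 match. The matches do not overlap each other. Of 32851 mouse promoter windows of this length, 6.95% held the STAT6 motif, 10.8% the C/EBP motif, 3.20% the PU.1 motif and 4.67% the MAF motif. Promoters were at hand for 7 of the 9 genes, and those of Cd163, Mrc1, Folr2 and Mgl2 held none of the motifs.

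The first question was what the transgene did to these genes on both backgrounds, with and without Q215X, with 4 transgenic and 4 non-transgenic libraries. Cd163 encodes the scavenger receptor that takes up complexes of haemoglobin and haptoglobin. It stood at 9.43 and 9.99 FPKM in the double and 7.95 and 8.95 FPKM in HA-NRG1 type III/+ nerves, against 15.3 and 15.4 FPKM in Q215X/+ nerves and 13.5 and 10.8 FPKM in WT nerves. All 4 transgenic libraries lay below all 4 others. The mean was 9.08 ± 0.865 FPKM with the transgene and 13.7 ± 2.15 FPKM without it (SD, n = 4 each), a ratio of 0.661.

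Lyve1 encodes a hyaluronan receptor of lymphatic vessels and of perivascular macrophages. It stood at 8.67 and 10.7 FPKM in the double and 9.34 and 10.7 FPKM in HA-NRG1 type III/+ nerves, against 12.9 and 20.7 FPKM in Q215X/+ nerves and 12.3 and 14.7 FPKM in WT nerves. Here too all transgenic libraries lay below all others, with means of 9.86 ± 1.02 FPKM with the transgene and 15.1 ± 3.84 FPKM without it (SD, n = 4 each) and a ratio of 0.651. Of the 9 genes, these 2 had every transgenic library below every other, which held for 5.2% of all tested genes.

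Over both backgrounds Cd163 fell by 0.54 log2 units (SE 0.08, limma with Benjamini-Hochberg adjusted p = 0.0467). It was the 1 gene of the 9 that passed, against a background of 0.455% of tested genes called lower. Lyve1 had a log2 difference of −0.55 (SE 0.16, adjusted p = 0.23), and 2 of the 9 genes had an unadjusted p under 0.05, against 11.2% of all genes. With the set as a replicate block, 2 of the 9 fell, Cd163 (adjusted p = 0.014) and Lyve1 (adjusted p = 0.0152), against a background of 3.69%. The share of all genes at an unadjusted p under 0.05 in this blocked fit is not given. Blocked counts of list genes at that level, below, are therefore values without a background. Lyve1 was called in this 1 of 16 alternative fits only, with log2 differences from −0.72 to −0.39 over all 16. The median log2 difference of the 9 genes was −0.25, and that of all tested genes was −0.01. The call of Cd163 ended without any 1 of the 8 libraries (adjusted p = 0.0902 to 0.221), with a term for sex (adjusted p = 0.148), and in 3 other alternative fits (adjusted p = 0.0516 to 0.0897), with log2 differences from −0.71 to −0.47 over all 16 alternatives.

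**Figure D1:**
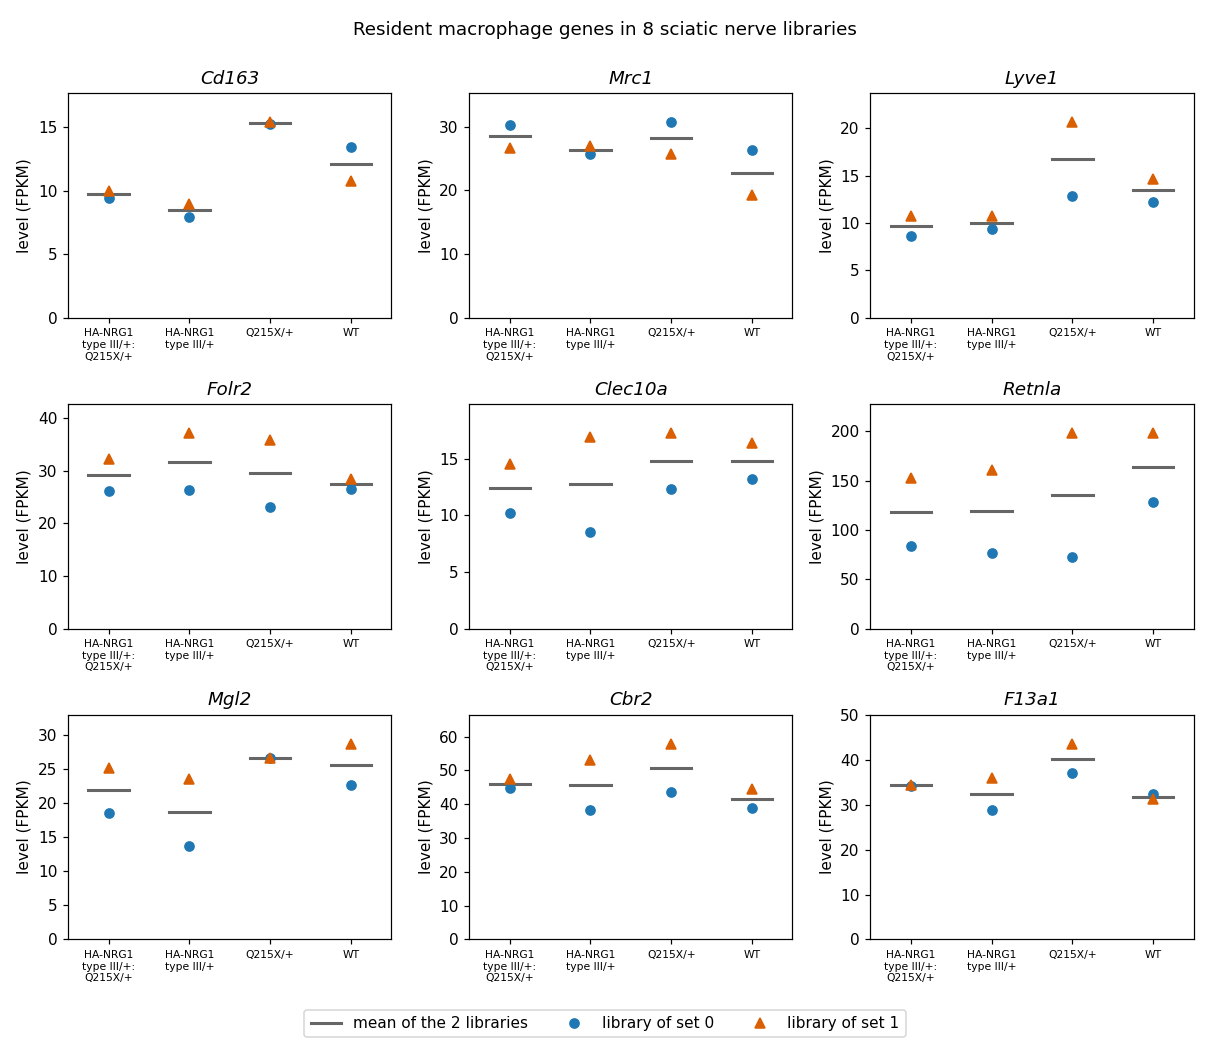
Levels of the 9 genes in FPKM (y axis, from 0) in each of the 4 genotypes (x axis), with circles for libraries of set 0, triangles for libraries of set 1 and a bar for their mean. Cd163 and Lyve1 are lower in both transgenic genotypes than in both others, while Retnla and Clec10a part mainly by set.

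The lectin gene Mgl2 encodes a receptor for galactose-type sugars on macrophages and dendritic cells. It was at 18.6 and 25.3 FPKM in the double and 13.8 and 23.6 FPKM in HA-NRG1 type III/+ nerves, against 26.7 and 26.6 FPKM in Q215X/+ nerves and 22.7 and 28.8 FPKM in WT nerves. Its transgenic libraries reached into the range of the others, with a log2 difference of −0.38 (SE 0.19, adjusted p = 0.564). Compared within each set and background, Mgl2 was lower with the transgene in 4 of 4 pairs, as were Cd163 and Lyve1. These 3 of the 9 genes compare with 17.5% of all tested genes that were lower in 4 of 4 pairs. Only in the set 1 pair on the WT background did both libraries read as the same sex. In that pair the FPKM ratio was 0.829 for Cd163, 0.729 for Lyve1 and 0.822 for Mgl2. Dendritic cells carry both lectins, and their list overlapped at 165 to 229 FPKM in transgenic nerves and 199 to 254 FPKM in the others, with 4 of 4 tested genes below 0 and 0 called in either limma fit (0 at an unadjusted p under 0.05, 3 in the blocked fit). Their receptor gene Flt3, below the filter, was at 0.093 to 0.170 FPKM in transgenic nerves and 0.013 to 0.062 FPKM in the others. The 4 tested genes were more abundant, with Zbtb46 at 3.88 to 6.37 FPKM and Cd74, H2-Aa and H2-Ab1 averaging 118, 51.6 and 31.6 FPKM. These last 3, genes of MHC class II antigen presentation, made up nearly all of the sum. It therefore says little of dendritic cells alone. The part of dendritic cells in the lectin levels was not tested.

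Clec10a, the neighbour of Mgl2 and its near copy in the genome, encodes the related lectin MGL1. Clec10a stood at 10.2 and 14.5 FPKM in the double and 8.53 and 16.9 FPKM in HA-NRG1 type III/+ nerves, against 12.3 and 17.2 FPKM in Q215X/+ nerves and 13.2 and 16.4 FPKM in WT nerves. The groups overlapped, with a log2 difference of −0.25 (SE 0.23, adjusted p = 0.86), and it passed in 1 alternative, with terms for both sex and set (−0.38, SE 0.06, adjusted p = 0.0475). On GRCm38, Mgl2 lies on chromosome 11 from 70130329 to 70137550 and Clec10a on the same chromosome from 70156197 to 70170834. Their annotated transcripts share 270 stretches of 50 bases, so the split of reads between these genes is uncertain. Stretches found in any other gene made up 9.02% of those of Clec10a and 13.1% of those of Mgl2. Cbr2 is also on chromosome 11, from 120729489 to 120732114, and 12.1% of its stretches of 50 bases occur in Gm11771.

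Mrc1 encodes the mannose receptor, which most resident macrophages carry. It was at 30.3 and 26.7 FPKM in the double and 25.7 and 27.0 FPKM in HA-NRG1 type III/+ nerves, against 30.8 and 25.8 FPKM in Q215X/+ nerves and 26.4 and 19.2 FPKM in WT nerves. The log2 difference with the transgene was 0.12 (SE 0.12, adjusted p = 0.885), and the groups overlapped. Folr2, a receptor for folate, had a log2 difference of 0.10 (SE 0.17, adjusted p = 0.965). Cbr2, a carbonyl reductase, had one of −0.01 (SE 0.14, adjusted p = 1), and F13a1, the catalytic subunit of coagulation factor XIII, one of −0.10 (SE 0.09, adjusted p = 0.853). Folr2 ran from 26.1 to 37.2 FPKM in transgenic nerves and from 23.1 to 35.9 FPKM in the others. Cbr2 ran from 38.4 to 53.0 FPKM in transgenic nerves and from 38.9 to 57.8 FPKM in the others, and F13a1 from 28.9 to 35.9 FPKM against 31.2 to 43.5 FPKM. All 4 genes had pairs below and above 0 among their 4 within-set pairs. Relative to the macrophage list, the differences of Mrc1 and Folr2 turned negative, at −0.052 and −0.072.

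**Figure D2:**
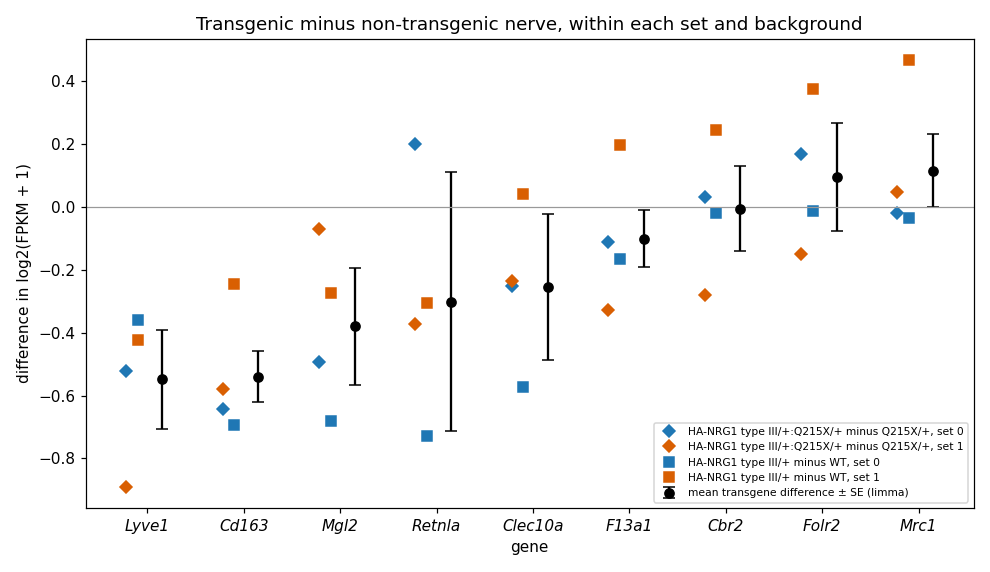
Difference in log2(FPKM + 1) between transgenic and non-transgenic libraries (y axis) for each gene (x axis), as diamonds on the Q215X/+ background and squares on the WT background, coloured by set, with black points for the mean transgene difference and its SE from limma. All 4 differences lie below 0 for Lyve1, Cd163 and Mgl2, and they lie on both sides of 0 for the other 6 genes.

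Cd163 lies on chromosome 6 from 124304656 to 124330527 and Lyve1 on chromosome 7 from 110850607 to 110863239. Their lower levels were set against genes of other cells and of macrophages in general. The list of genes shared by most macrophages had 15 of 16 members above 0 with the transgene, a median log2 difference of 0.15 and 0 calls in either limma fit. Its genes at an unadjusted p under 0.05 numbered 0 without the block, against 11.2% of all genes, and 6 in the blocked fit, where no such share is given. Relative to the mean of that list in each library, Cd163 fell by 0.71 log2 units (SE 0.13, adjusted p = 0.0429) and Lyve1 had a difference of −0.72 (SE 0.14, adjusted p = 0.0661). The ratio of Cd163 to Csf1r, a gene picked from the list after its values were seen, was 0.190 and 0.238 in the double and 0.191 and 0.202 in HA-NRG1 type III/+ nerves. It was 0.342 and 0.478 in Q215X/+ nerves and 0.323 and 0.356 in WT nerves. The ratio of Mrc1 to Csf1r stayed within 0.609 to 0.637 in transgenic nerves and 0.633 to 0.800 in the others.

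**Figure D3:**
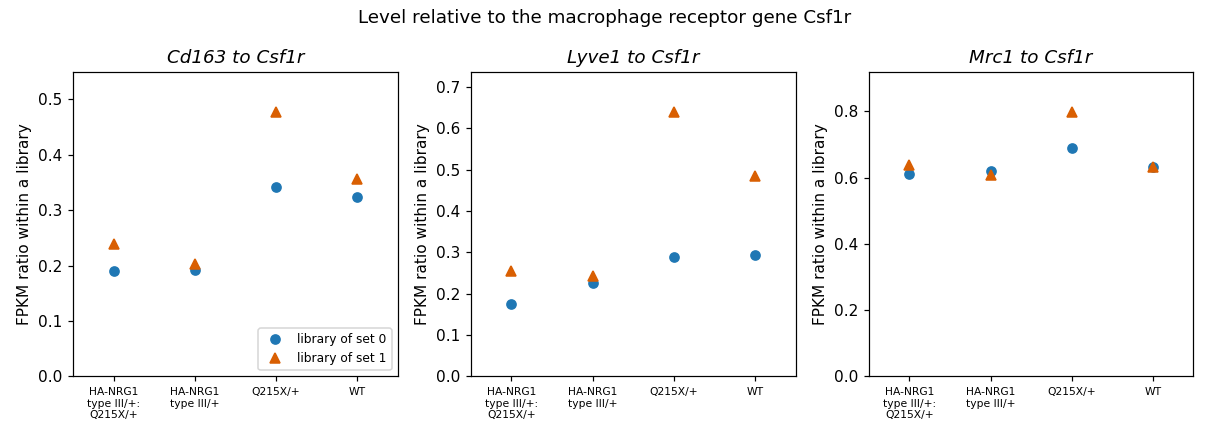
FPKM ratio of Cd163, Lyve1 and Mrc1 to Csf1r within each library (y axis, from 0) by genotype (x axis), with circles for set 0 and triangles for set 1. The ratios of Cd163 and Lyve1 are lower in all 4 transgenic libraries than in the other 4, and the ratios of Mrc1 overlap.

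Of 9 tested genes described on endoneurial macrophages, 8 were above 0 with the transgene, with a median log2 difference of 0.56. Among them 3 rose over both backgrounds, against 0.535% of all tested genes called higher: Trem2, a lipid receptor of phagocytes (log2 difference 0.56, SE 0.07, adjusted p = 0.0355), Mpeg1, which encodes a pore-forming protein (0.63, SE 0.10, adjusted p = 0.0499), and Pla2g7, a phospholipase of macrophages (0.41, SE 0.06, adjusted p = 0.0466). With the block 7 of the 9 rose, against 3.42%. Their summed level was 239 to 283 FPKM in transgenic nerves and 175 to 201 FPKM in the others, without overlap. The summed level of the 9 epineurial-type genes, of which Retnla made up a large part, overlapped at 236 to 374 FPKM in transgenic nerves and 275 to 441 FPKM in the others.

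A further list held other genes found on perivascular and Lyve1-type macrophages. Of its 15 tested genes 7 were above 0 and 8 below 0 with the transgene, and the median log2 difference was −0.06. In limma 0 were called with or without the block, and 1 had an unadjusted p under 0.05 without it and 4 with it. Ednrb, an endothelin receptor, had the smallest p, with a difference of 0.56 (SE 0.15, adjusted p = 0.184), and the scavenger receptor gene Stab1 had 0.16 (SE 0.10, adjusted p = 0.673). Among lymphatic endothelial genes, whose cells also carry LYVE1, 4 of 4 were above 0 and 0 were called in either limma fit, while genes at an unadjusted p under 0.05 numbered 0 without the block and 2 in the blocked fit. The summed lymphatic list stood at 66.8 to 83.4 FPKM in transgenic nerves and 64.5 to 77.8 FPKM in the others. Reln and Pdpn averaged 45.7 and 25.2 FPKM and made up nearly all of that sum, so it says little of lymphatic endothelium. Flt4 and Mmrn1 averaged 1.00 and 1.07 FPKM. Prox1, the defining transcription factor of that cell type, ran from 0.157 to 0.355 FPKM in transgenic nerves and from 0.094 to 0.255 FPKM in the others.

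The surroundings of the receptors were read from the partners of their products. Hmox1, the haem-degrading enzyme that follows haemoglobin uptake, had a log2 difference of 0.36 with the transgene (SE 0.15, adjusted p = 0.427) and rose with the block (adjusted p = 0.0243). The hyaluronan synthase gene Has2 (0.45, SE 0.25, adjusted p = 0.646) and the hyaluronan receptor gene Cd44 (0.39, SE 0.23, adjusted p = 0.672) rose with the block as well (adjusted p = 0.049 and 0.039). These were 3 of 7 tested partner genes, against 3.42% of all genes called higher in the blocked fit. Without the block 0 of the 7 were called in limma, with 1 at an unadjusted p under 0.05, against 11.2% of all genes. Of the response to interleukin 4 and interleukin 13, 0 of 7 genes were called in either fit, with 1 at an unadjusted p under 0.05 in each. Their median was 0.04, with 0.20 (SE 0.06, adjusted p = 0.228) for the receptor gene Il13ra1 and −0.09 (SE 0.06, adjusted p = 0.734) for Stat6. The cytokine genes Il4 and Il13 themselves did not exceed 0.178 and 0.024 FPKM in any library. Of 6 tested ligands and receptors that maintain macrophages, 0 were called in either fit, with 0 at an unadjusted p under 0.05 without the block and 2 with it.

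Red blood cell genes moved in the same direction as Cd163. All 5 were below 0 with the transgene, and their summed level was 49.1 to 178 FPKM in transgenic nerves and 239 to 1279 FPKM in the others. In limma 1 of the 5 was called lower, against 0.455% of all tested genes. The erythroid enzyme gene Alas2 fell by 2.43 log2 units (SE 0.26, adjusted p = 0.0254). With the block 4 of the 5 were called lower, against 3.69%. Reads of the near-identical globin genes may have been divided among them. The part of blood in the lower Cd163 was not tested.

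On the WT background the transgene was tested in the absence of Q215X. In limma 0 of the 9 genes were called in HA-NRG1 type III/+ against WT with or without the block, and 1 had an unadjusted p under 0.05 without it and 4 with it. The background was 0.0638% of genes called and 6.9% at an unadjusted p under 0.05, and in the blocked fit 2.11% and 17.5%. Cd163 had a log2 difference of −0.47 (SE 0.12, adjusted p = 0.332), with an FPKM ratio of 0.590 in set 0 and 0.829 in set 1. Lyve1 had one of −0.39 (SE 0.22, adjusted p = 0.896), with ratios of 0.761 and 0.729. The groups did not overlap for these 2 of the 9, both lower, against 15.7% of genes. Mgl2 had a difference of −0.48 (SE 0.26, adjusted p = 0.889) and overlapped. The other 6 genes had differences of −0.52 (Retnla), −0.27 (Clec10a), 0.02 (F13a1), 0.11 (Cbr2), 0.18 (Folr2) and 0.22 (Mrc1). Without 1 of the 2 HA-NRG1 type III/+ libraries, Mgl2 moved to −0.11 (without set 0) or −0.85 (without set 1).

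In the mutant nerve, the double against Q215X/+ asks what the transgene changes when the Q215X allele is present. Without the block 0 of the 9 genes were called, with 2 at an unadjusted p under 0.05, against 0.0399% called and 6.58% at an unadjusted p under 0.05 among all genes. With the block Lyve1 fell by 0.71 log2 units (SE 0.11, adjusted p = 0.0469), 1 of the 9 against 0.87% of genes called lower. Its FPKM ratio was 0.673 in set 0 and 0.517 in set 1. Without the set 1 library of Q215X/+, which also held skeletal muscle transcripts, its difference was −0.38 (adjusted p = 0.935 without the block), and without the set 0 library of Q215X/+ it was −1.03. Cd163 had a difference of −0.61 (SE 0.12, adjusted p = 0.214, and 0.0586 with the block), with ratios of 0.617 and 0.648. Cd163, Lyve1, Mgl2 and F13a1 were lower in the double without overlap, 4 of the 9 against 15.2% of genes. Log2 differences of the other 7 genes were −0.28 (Mgl2), −0.24 (Clec10a), −0.22 (F13a1), −0.13 (Cbr2), −0.09 (Retnla), 0.01 (Folr2) and 0.01 (Mrc1). With a term for sex, which here divides the libraries as genotype does, those of Clec10a, Mgl2 and Retnla came to −1.15, −1.02 and −1.13.

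The test of whether the transgene acted differently on the 2 backgrounds gave no call for any of the 9 genes, with 0 at an unadjusted p under 0.05 in either fit and every adjusted p at 1 without the block. Over all genes 0.00798% were called in each fit, and the shares at an unadjusted p under 0.05 were 1.11% and, in the blocked fit, 4.78%. The log2 difference between the effects was −0.31 for Lyve1, −0.24 for Cbr2, −0.24 for F13a1, −0.20 for Mrc1, −0.17 for Folr2, −0.14 for Cd163, 0.02 for Clec10a, 0.19 for Mgl2 and 0.43 for Retnla. With these few libraries that does not show that the effects were alike.

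The Q215X allele alone was read from Q215X/+ nerves against WT nerves. In limma 0 of the 9 genes were called in either fit, with 2 at an unadjusted p under 0.05 without the block and 4 with it. Among all genes 0.00798% were called in each fit, and the shares at an unadjusted p under 0.05 were 2.04% and 7.41%. The median of the 9 was 0.26 log2 units, against −0.01 over all genes. F13a1 stood at 37.0 and 43.5 FPKM in Q215X/+ nerves and 32.5 and 31.2 FPKM in WT nerves, a log2 difference of 0.33 (SE 0.13, adjusted p = 1). Cd163 had a difference of 0.32 (SE 0.12, adjusted p = 1), Mrc1 one of 0.31 (SE 0.16, adjusted p = 1) and Lyve1 one of 0.26 (SE 0.22, adjusted p = 1). The remaining differences were −0.41 (Retnla), −0.01 (Clec10a), 0.06 (Mgl2), 0.07 (Folr2) and 0.27 (Cbr2). The groups did not overlap for F13a1 and Cd163, both higher, 2 of the 9 against 8.78% of genes. The set 1 library of Q215X/+ also held skeletal muscle transcripts, with a summed list of 748 FPKM against 2.46 to 60.1 FPKM in the other 7 libraries, and the highest adipocyte list at 816 FPKM. Their part in the levels of that library was not tested. Without it the difference to WT was −0.06 for Lyve1, 0.070 for Cbr2 and 0.21 for F13a1, and that of Retnla was −1.12. Without the set 1 library of WT it was 0.092 for Mrc1 and 0.18 for Cd163. A term for sex without the block parts Q215X/+ from WT libraries and draws on HA-NRG1 type III/+ alone, through its set difference. It gave differences of 0.80 for Mgl2, 0.55 for Folr2, 0.72 for Cbr2, 0.63 for F13a1 and 0.44 for Lyve1. With terms for sex and set, Mrc1 had 0.66, Cd163 had 0.54 and Lyve1 had 0.057.

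The double against WT compares nerves with both alleles to nerves with neither. Here 0 of the 9 genes were called in either limma fit, with 1 at an unadjusted p under 0.05 without the block and 4 with it, and the shares of all genes called were 0.112% and 2.39% in the 2 fits, with 7.29% and 17.9% at an unadjusted p under 0.05. Cd163 had a log2 difference of −0.29 (SE 0.12, adjusted p = 0.673), Lyve1 one of −0.44 (SE 0.22, adjusted p = 0.814) and Mrc1 one of 0.32 (SE 0.16, adjusted p = 0.815). The groups did not overlap for 2 genes that were lower, Cd163 and Lyve1, against 16.7% of genes, and for 3 that were higher, Mrc1, Cbr2 and F13a1, against 14.4%, of which Cbr2 and F13a1 turned negative relative to the macrophage list. The other 6 genes had differences of −0.49 (Retnla), −0.25 (Clec10a), −0.22 (Mgl2), 0.08 (Folr2), 0.11 (F13a1) and 0.14 (Cbr2). Cd163 had −0.14 without the set 0 library of WT and −0.44 without its set 1 library, and Mrc1 had 0.54 and 0.11. All 4 libraries of this comparison read as female from Xist and Ddx3y. The pair from Q215X/+ read as male. That from HA-NRG1 type III/+ held 1 male library (set 0) and 1 female library (set 1). Sex and genotype therefore cannot be told apart where Q215X/+ nerves meet WT nerves or the double. In set 0 the HA-NRG1 type III/+ and WT libraries differ in sex as well. These comparisons share groups and are not independent of each other.

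Several of the genes, among them Retnla, Clec10a, Folr2 and Cbr2, differed more on average between sets than with the transgene. Retnla encodes RELMα, a secreted protein. It stood in set 1 at 153 FPKM in the double, 160 in HA-NRG1 type III/+, 198 in Q215X/+ and 198 in WT. In set 0 it stood at 83.7 FPKM in the double, 77.1 in HA-NRG1 type III/+, 72.8 in Q215X/+ and 128 in WT. Every set 1 library was above every set 0 library, with means of 177 ± 24.2 FPKM in set 1 and 90.5 ± 25.6 FPKM in set 0 (SD, n = 4 each). In the fit with the block Retnla was higher in set 1 by 0.99 log2 units (SE 0.12, adjusted p = 0.00338), while its difference with the transgene was −0.30 (SE 0.41, adjusted p = 0.949).

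Besides Retnla, 5 of the genes were called higher in set 1, making 6 of the 9 against 22.1% of all tested genes. They were Clec10a (log2 difference 0.53, SE 0.10, adjusted p = 0.0103), Folr2 (0.37, SE 0.09, adjusted p = 0.0201), Lyve1 (0.34, SE 0.08, adjusted p = 0.0229), Cbr2 (0.28, SE 0.07, adjusted p = 0.024) and Mgl2 (0.37, SE 0.11, adjusted p = 0.0441). Higher in set 1 in all 4 genotypes were 5 of the 9, against 31.5% of genes. Cd163 differed by −0.01 (SE 0.08, adjusted p = 0.911), F13a1 by 0.12 (SE 0.07, adjusted p = 0.203) and Mrc1 by −0.20 (SE 0.08, adjusted p = 0.0994). Labels do not say what the endings stand for.

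The set difference moved with transcript length. Over the 11810 tested genes with an annotated transcript, 94.3% of those tested, the set difference and the length of the longest transcript had a Spearman rho of −0.50 across genes, which are not independent replicates. The median set difference was 0.20 log2 units among the shortest of 4 equal groups of genes and −0.08 among the longest. Retnla, with 599 bases the shortest of the 9, had the largest set difference, and Mrc1, with 5374 bases the longest, had the lowest. The same rho was 0.03 for the transgene over both backgrounds. The part of length in the set differences of the 9 genes was not tested.

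**Figure D4:**
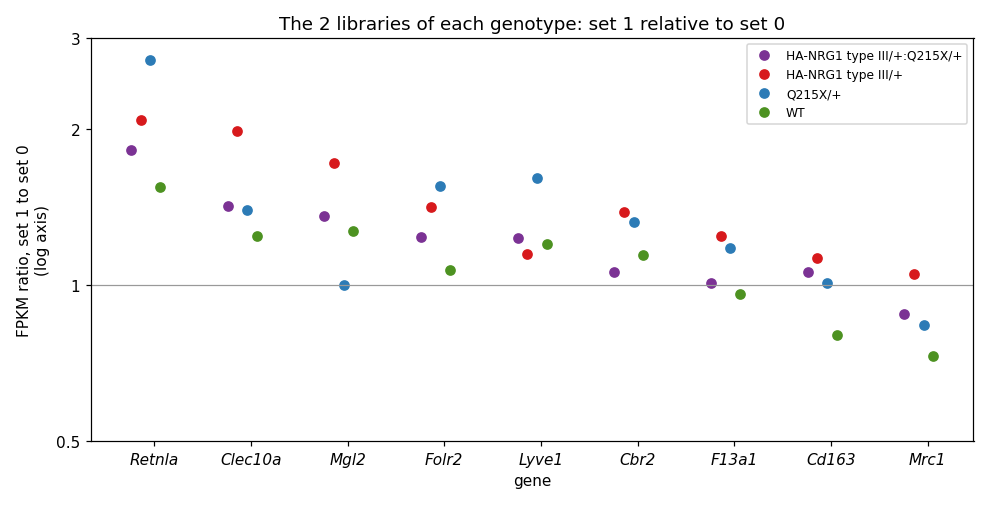
FPKM ratio of the set 1 library to the set 0 library of the same genotype (y axis, log scale) for each gene (x axis), with 1 point per genotype. Retnla ranges from 1.54 to 2.72, while Cd163 and Mrc1 lie on both sides of 1.

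The genes most like the 9 in their pattern were sought by Pearson correlation with the mean of their standardised log2 levels over the 8 libraries, as a description. The closest were Krtdap (r = 0.96), Fam195a (0.96), Ctns (0.94), Fance (0.94), Ddx59 (0.94), Ly6g6d (0.94), Mccc2 (0.94), Gpihbp1 (0.92), Gpatch3 (0.92) and Hspa8 (0.92). None of these 10 belongs to a macrophage list used here, and all 8 libraries share the division by set.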

How the data were processed

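The authors deposited 1 table of FPKM values, fragments scaled to transcript length and library size, for 8 poly A selected libraries. The submitters' processing notes name TopHat2 2.0.9, Cufflinks 2.2.0 and mm10 without their roles, and no source used here gives the annotation or the strand handling. An empty field follows each symbol and was skipped. Genotypes were matched by the stem of the column name, and the abbreviated stem went to HA-NRG1 type III/+ because no other stem named that genotype. No label ties the endings 0 and 1 to replicate numbers.

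The limma package 3.58.1 (R 4.3.3) was run on log2(FPKM + 1), so log2 differences understate the change of low genes. The 12530 genes averaging 1 FPKM or more were fitted with 4 group means (4 residual degrees of freedom, eBayes trend). A call is an adjusted p (Benjamini-Hochberg, over these genes) under 0.05. The transgene over both backgrounds is the mean of its 2 effects. The set was checked as a pairing: the set 1 minus set 0 differences of the 6 pairs of genotypes correlated across genes at 0.118 to 0.304, so a blocked fit, with set as the replicate block and 3 residual degrees of freedom, is given where it changes a call. The pairing comes from the data, not from a label. The fit was tested on simulated data. The genes, the gene lists and the tests were chosen with earlier results of these data known. The gene that carries the Q215X allele is not reported here.

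All 9 genes are named in each comparison, and of each list up to 4 called genes or the 2 with the smallest p where a result turns on them. Prox1, Reln, Pdpn, Flt4, Mmrn1, Flt3, Zbtb46, H2-Aa, H2-Ab1, Cd74, Csf1r, Has2, Cd44, Il4, Il13 and Abca9 were named after their values were seen. List symbols absent from the table were matched through RefSeq synonyms. Coordinates come from GENCODE M21 on GRCm38, the assembly of mm10. FPKM hold no counts, so the absolute depth is unknown and intervals of counting error cannot be had. Common steps of low values gave depths of 0.727 to 1.09 relative to WT set 0. Total FPKM per library ran from 443733 to 530901. Alternatives were the block, a term for sex, both, another pseudocount (0.1), no filter, 3 scalings and leaving out each library.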

Additional observations from a re-analysis of the deposited data

How the results depend on the processing

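Of 720 values of the 9 genes (45 results under 16 alternatives), 656 kept their sign and their side of the threshold, 49 turned their sign, 12 lost a call and 3 gained one. No value that turned had been called. Over both backgrounds 1 of the 9 genes was called, against 2 with the set as a replicate block, 2 with terms for sex and set, and 0 with a term for sex alone, with no filter, with median-of-ratios scaling, with scaling without short RNA genes, or without any 1 library (0 to 0). The 2 genes were Cd163 and Lyve1 with the block, and Cd163 and Clec10a with terms for sex and set. With the block 1 gene was called in the double against Q215X/+. The block changed no other call of the 9 genes. The causes were not tested. A term for sex without the block takes up the set difference of HA-NRG1 type III/+, so sex and set are not parted there. With a term for sex, the sign turned for Clec10a (0.90) and Retnla (0.64) in Q215X/+ against WT, Clec10a (0.19) and Retnla (0.0074) in HA-NRG1 type III/+ against WT, Mrc1 (−0.053) and Folr2 (−0.47) in the double against Q215X/+ and Folr2 (−0.025) in the transgene over both backgrounds. With terms for sex and set, the sign turned for Clec10a (0.50) in Q215X/+ against WT and Mrc1 (−0.34) and Folr2 (−0.14) in the double against Q215X/+. With scaling without short RNA genes, the sign turned for Clec10a (0.035) in Q215X/+ against WT and Cbr2 (0.032) in the transgene over both backgrounds. Relative to the macrophage list, the sign turned for Cbr2 (−0.053) and F13a1 (−0.15) in HA-NRG1 type III/+ against WT, Mrc1 (−0.15) and Folr2 (−0.16) in the double against Q215X/+, Folr2 (−0.12), Cbr2 (−0.058) and F13a1 (−0.094) in the double against WT and Mrc1 (−0.052) and Folr2 (−0.072) in the transgene over both backgrounds. Without 1 library at a time, the ranges crossed 0 for Mgl2 (−0.11 to 0.22), Clec10a (−0.23 to 0.22), Retnla (−1.12 to 0.31), Lyve1 (−0.057 to 0.59) and Folr2 (−0.24 to 0.37) in Q215X/+ against WT. They did so for Mrc1 (−0.00046 to 0.43), F13a1 (−0.14 to 0.17), Clec10a (−0.72 to 0.19), Retnla (−1.04 to 0.0074), Folr2 (−0.060 to 0.42) and Cbr2 (−0.11 to 0.34) in HA-NRG1 type III/+ against WT. They did so for Folr2 (−0.30 to 0.32), Mrc1 (−0.11 to 0.14), Retnla (−0.80 to 0.63) and Cbr2 (−0.32 to 0.073) in the double against Q215X/+. They did so for Folr2 (−0.072 to 0.22) in the double against WT. They did so for Cbr2 (−0.12 to 0.11), Folr2 (−0.057 to 0.25) and Retnla (−0.66 to 0.057) in the transgene over both backgrounds. Calls among all genes moved more. For Q215X/+ against WT they were 1, against 8 with sex, 9 with sex and set, 2 with no filter, 0 without short RNA genes and 1 to 15 without 1 library. For HA-NRG1 type III/+ against WT they were 8, against 265 with the block, 0 with no filter, 1 relative to the macrophage list and 1 to 10 without 1 library. For the double against Q215X/+ they were 5, against 216 with the block, 9 with sex, 11 with sex and set, 3 with no filter, 9 without short RNA genes and 1 to 17 without 1 library. For the double against WT they were 14, against 299 with the block, 98 with sex and set, 23 without short RNA genes, 5 relative to the macrophage list and 4 to 17 without 1 library. For the transgene over both backgrounds they were 124, against 890 with the block, 22 with sex, 304 with sex and set, 59 with no filter and 11 to 42 without 1 library. For the interaction they were 1, against 9 with sex, 9 with sex and set, 0 without short RNA genes and 3 to 11 without 1 library. FPKM without counts limit what can be said of sampling error, and 2 libraries per genotype leave a wide error on single comparisons.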

Other observations

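Fibroblast genes described in the endoneurium had a summed level of 66.1 to 69.9 FPKM in transgenic nerves and 49.8 to 59.2 FPKM in the others, without overlap, with 4 of 4 tested genes above 0 over both backgrounds and a median log2 difference of 0.27. In limma 0 of the 4 were called, with 2 at an unadjusted p under 0.05, against 11.2% of all genes, and with the block 2 rose, against 3.42% of all genes called higher. They were Abca9, a lipid transporter (0.26, adjusted p = 0.0363), and Cdkn2a, a brake on the cell cycle (0.95, adjusted p = 0.0185). Fibroblast genes described in the epineurium overlapped, at 548 to 723 FPKM in transgenic nerves and 595 to 785 FPKM in the others, with 2 of 8 above 0, a median of −0.08 and 0 calls in either fit (0 at an unadjusted p under 0.05 in each). Perineurial genes stood at 312 to 417 FPKM in transgenic nerves and 346 to 411 FPKM in the others. The difference between these lists was not tested.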
